A study of Homo sapiens with 6 samples.

Results

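The MYC and MAX network is a family of 10 genes here: MYC, MYCN, MAX, MXI1, MXD1, MXD3, MXD4, MNT, MLX and MLXIP. They were chosen by name and function, with earlier results of these data known, among 58478 genes summed from the deposited transcripts. Of the 10 genes, 9 passed the filter on low counts and were tested, and MYCN was below it.

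MYC and MYCN are transcription factors that drive growth, ribosome production and proliferation. They bind DNA only as a pair with MAX, at a sequence called the E-box (CACGTG). MXI1, MXD1, MXD3, MXD4 and MNT also pair with MAX, bind the same sequence and repress transcription by recruiting SIN3 corepressor complexes. MLX is a further shared partner, for some MXD proteins and MNT and for the glucose-responsive factors MLXIP (MondoA) and MLXIPL (ChREBP). MXI1 is known as a target of the hypoxia-inducible factor HIF-1, through which low oxygen is known to restrain MYC.

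RNA was measured in 6 libraries labelled Huh7, a human hepatocellular carcinoma line, all wild type. Cells were kept for 24 h at 21% oxygen (normoxia, libraries C1 to C3) or at 1% oxygen in a hypoxic chamber (hypoxia, libraries C4 to C6). Expected counts per library ranged from 37621426 to 40794783. Biological replicates are stated, but separate cultures are not described, and the p-values cover no more than the spread seen among these 6 libraries. Of 11 hepatocyte markers, 8 were under 1 CPM (counts scaled to the size of the library) in both groups, and AFP, APOA1, TTR and GPC3 had 0 counts in all 6 libraries, so the libraries lack defining markers of the labelled cell type. The other 3 markers rose in hypoxia: TF from a mean of 8.24 to 12.1 CPM, HNF4A from 1.30 to 7.01 and SERPINA1 from 0.067 to 1.83. Over all 11 markers the summed level ran from 8.87 to 10.7 CPM in normoxia and from 20.8 to 21.6 CPM in hypoxia. The part of that difference in the results was not tested.

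The sequences that bear on these results are those of members with more than 1 annotated start or coding end. MXI1 has a promoter for each of its main transcripts, of which 1 rose and the other did not pass the test. The 250 bases before each start are shown from RefSeq (GRCh38.p14, plus strand), with capitals on any ACGTG or GCGTG, the core letters of HIF binding sites, on either strand. The first lies at chr10:110207355-110207604, before MXI1-202, and the second at chr10:110225746-110225995, before the RefSeq start that lies a few bases downstream of the annotated start of MXI1-201.
MXI1-202 promoter: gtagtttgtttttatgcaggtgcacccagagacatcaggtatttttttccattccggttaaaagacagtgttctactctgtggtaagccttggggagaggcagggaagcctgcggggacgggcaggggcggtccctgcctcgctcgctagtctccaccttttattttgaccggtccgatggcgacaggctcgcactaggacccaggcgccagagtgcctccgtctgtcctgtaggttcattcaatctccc
MXI1-201 promoter: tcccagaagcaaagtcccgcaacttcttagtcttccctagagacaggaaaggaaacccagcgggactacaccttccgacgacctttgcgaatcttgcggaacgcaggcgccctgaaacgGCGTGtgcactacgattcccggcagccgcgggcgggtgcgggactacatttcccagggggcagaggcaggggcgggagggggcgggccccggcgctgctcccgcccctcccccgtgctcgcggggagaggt
Neither printed window holds an E-box. The MXI1-202 window holds neither core, and the MXI1-201 window holds 1 GCGTG, as do 32.2% of the 35116 RefSeq promoter windows of this length. A further MXI1 window, at chr10:110209981-110210230 before MXI1-203, holds 1 ACGTG and 1 GCGTG, at -113 and -127 from the start, and is not printed because that transcript was close to absent. ACGTG is found in 18.5% of all windows and CACGTG in 6.34%. A match is a description of letters, and an absent match says only that they are not in this window.

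MAX transcripts differ in how their coding part ends. MAX-205, the longer form, goes on over a splice junction. MAX-202 reads on into the intron and stops there. The last 30 shared coding bases (lower case, GENCODE release 29, up to position 65077913 on chromosome 14, minus strand) and each transcript's own coding bases to the stop codon (capitals) are:
MAX-202: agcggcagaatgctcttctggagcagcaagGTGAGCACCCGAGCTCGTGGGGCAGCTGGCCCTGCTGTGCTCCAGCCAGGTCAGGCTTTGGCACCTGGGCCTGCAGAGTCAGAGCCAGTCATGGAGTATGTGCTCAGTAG
MAX-205: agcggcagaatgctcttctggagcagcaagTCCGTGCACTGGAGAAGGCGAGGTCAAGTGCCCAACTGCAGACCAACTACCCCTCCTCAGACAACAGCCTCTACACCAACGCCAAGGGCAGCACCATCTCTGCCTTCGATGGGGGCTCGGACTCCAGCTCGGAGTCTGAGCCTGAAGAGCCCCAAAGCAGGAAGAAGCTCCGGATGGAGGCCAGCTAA
MAX-202 has 134 codons and MAX-205 has 160, and the own part is 110 bases in MAX-202 and 188 in MAX-205. MAX-204 ends as MAX-205 does and lacks a short exon near the start, with 151 codons.

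RefSeq promoter windows were matched for 9 of the 10 genes, all but MYC. These 9 genes have 12 windows, and an E-box lay within 250 bases of the start in 3 genes, MXD4, MNT and MLX. Of all 35116 RefSeq windows, 6.34% hold an E-box, a share counted per window and not per gene. A gene with several windows has more chances of a match. The 3 are the matched genes of the network with a matched window that carries the letters its proteins bind. MAX-202, MAX-204 and MAX-205 start at 65102488, 65102504 and 65102470 on the minus strand. Of the MAX windows, chr14:65102284-65102533 overlaps these starts and chr14:65101685-65101934 lies downstream of them. Most of the bases before these MAX starts were therefore not searched. Each is shown with 12 bases on each side (capitals: CACGTG).
MXD4, chr4:2262330-2262359, minus strand: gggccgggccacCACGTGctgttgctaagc
MNT, chr17:2401236-2401265, minus strand: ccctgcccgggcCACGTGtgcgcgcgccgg
MLX, chr17:42567038-42567067, plus strand: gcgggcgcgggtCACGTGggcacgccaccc
As described next, MNT rose and MXD4 and MLX fell, so the genes with an E-box did not share a direction.

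In hypoxia the MYC mRNA fell and the mRNAs of its antagonists MXI1, MXD1 and MNT rose, while MAX did not pass the test. Of the 9 tested genes, 3 rose (MXI1, MXD1 and MNT), 3 fell (MYC, MLX and MXD4) and 3 did not pass (MAX, MXD3 and MLXIP) in edgeR's quasi-likelihood test. Among all 17396 genes tested, 72.8% were called, 36.5% risen and 36.3% fallen, so the count of called members is near the background. The CPM ranges of the groups did not overlap for the 6 called members, and they did not overlap for 75.7% of all genes. MYC fell by more than 2-fold, as did 11.4% of all genes. MXI1 and MXD1 rose by more than 2-fold, as did 17.5%. In bulk RNA, fewer expressing cells and less RNA per cell cannot be told apart.

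**Figure D1:**
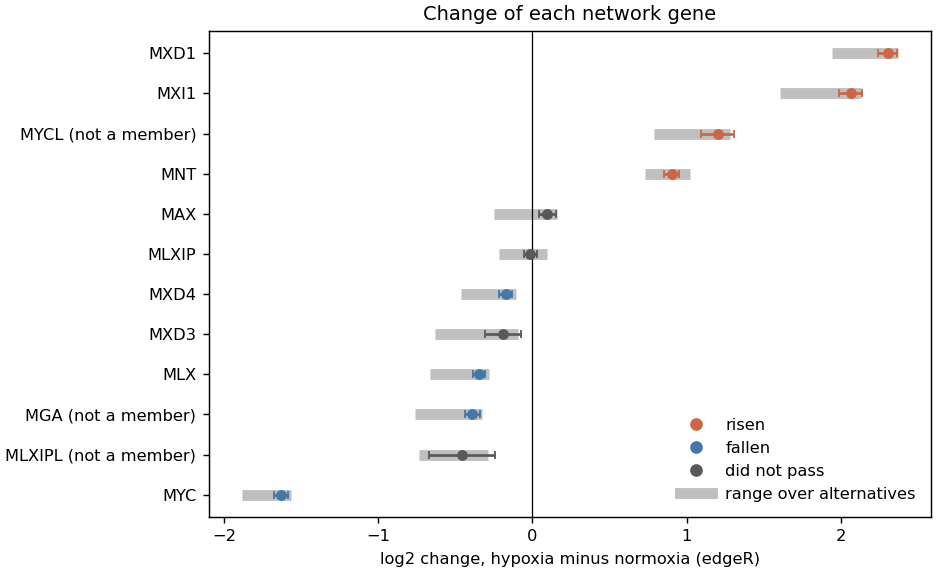
Log2 change of each network gene in hypoxia against normoxia (x axis), with bars for the standard error of the edgeR fit over 3 libraries per group and grey bands for the range over the alternatives that keep gene sums. MXD1 and MXI1 lie at 2.30 and 2.06, MYC at -1.63, and the bands of MAX and MLXIP cross 0.

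MYC was the most abundant gene of the network in every library. Its gene (ENSG00000136997.17) lies on chromosome 8, 127735434 to 127741434 on GRCh38, plus strand. MYC stood at 1016, 1001 and 985 CPM in normoxia C1, C2 and C3. In hypoxia C4, C5 and C6 it stood at 324, 339 and 305 CPM. Every hypoxia library was far below every normoxia library. The mean fell from 1001 ± 15.8 to 323 ± 17.1 CPM (SD, n = 3), which is -1.63 ± 0.05 in log2 units (SE), or 3.1-fold, with an edgeR adjusted p of 2.57e-10. Over all alternatives the log2 change of MYC ran from -1.89 to -1.52.

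The main transcripts of MYC fell. Of its 8 transcripts in the table, 6 were tested, 4 fell and 2 did not pass. MYC-202, which held 70.6% of the gene's expected counts in normoxia and 66.7% in hypoxia, fell by 1.74 on the log2 scale (SE 0.05, edgeR per transcript). MYC-205, with 20.9% and 23.4%, fell by 1.5 (SE 0.07). MYC-207 fell by 2.38 (SE 0.06) and held 4.36% and 2.64%. Among all 63530 transcripts tested, 31.7% were called, 16.7% as risen and 15% as fallen. The test per transcript, here and below, does not cover the uncertainty of dividing reads among transcripts.

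MYCN, the paralog of MYC known from neuroblastoma (chromosome 2, ENSG00000134323.11), was close to absent. It had 4, 3 and 0 counts in normoxia C1 to C3 and 6, 14 and 8 counts in hypoxia C4 to C6. The groups did not overlap, but at these counts MYCN did not enter the test. Without a low-count filter its log2 change was 2.11 with an edgeR adjusted p of 0.0291. MYCL, another MYC paralog and outside the 10 genes, rose from 6.18 ± 0.532 to 14.2 ± 1.39 CPM (SD, n = 3), which is 1.20 ± 0.11 in log2 units (SE). Its mean of 4.4 FPKM (CPM per kilobase of transcript, from unscaled totals) in hypoxia compares with 146 FPKM for MYC.

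MXI1 encodes a MAX partner that antagonizes MYC (ENSG00000119950.20, chromosome 10, 110207605 to 110287365, plus strand). MXI1 stood at 37.5, 46 and 45.6 CPM in normoxia C1 to C3. In hypoxia C4 to C6 it stood at 189, 175 and 176 CPM. The lowest hypoxia library was far above the highest normoxia library. The mean rose from 43 ± 4.83 to 179.9 ± 8.08 CPM (SD, n = 3), which is 2.06 ± 0.08 in log2 units (SE) or 4.18-fold, with an edgeR adjusted p of 1.91e-09.

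MXI1 reads were assigned mostly to the transcript from the upstream start, and that transcript rose. MXI1-202 starts at 110207605 and MXI1-201 at 110225993, 18388 bases downstream, and both join the same second exon. MXI1-202 held 88%, 81.7% and 85% of the gene's expected counts in normoxia C1 to C3 and 96.5%, 93.1% and 94.8% in hypoxia C4 to C6. It rose from 37 ± 3.66 to 169.7 ± 11.4 CPM (SD, n = 3), which is 2.20 ± 0.09 in log2 units (SE, edgeR per transcript, adjusted p = 2.56e-05). MXI1-201 stood at 5.66 ± 1.96 and 6.43 ± 2.37 CPM and did not pass, with a log2 change of 0.18 ± 0.38 (SE, edgeR adjusted p = 0.756). The difference between the changes of both transcripts was not tested. The transcripts differ in their first exon and also at the other end, where MXI1-202 is annotated 859 bases longer, so reads at either end could have assigned them. MXI1-203 held 0% of the gene's counts in normoxia and 0.163% in hypoxia.

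MXD1 (MAD1) is the antagonist classically linked to differentiation (ENSG00000059728.10, chromosome 2, 69897688 to 69942945). MXD1 stood at 16.7, 17.7 and 18.8 CPM in normoxia C1 to C3. In hypoxia C4 to C6 it stood at 84.2, 85.1 and 93.3 CPM. The groups were far apart. The mean rose from 17.7 ± 1.07 to 87.5 ± 5.01 CPM (SD, n = 3), which is 2.30 ± 0.06 in log2 units (SE) or 4.94-fold, the largest of the 9 tested genes (edgeR adjusted p = 2.43e-10). All 4 tested MXD1 transcripts rose, among them MXD1-201, with 89.5% of the gene's counts in normoxia and 84.4% in hypoxia (log2 change 2.19 ± 0.12 SE), and MXD1-206 (2.79 ± 0.39 SE). Exons of MXD1 overlap those of the tested gene SNRNP27 on the same strand, so reads in the overlap may belong to that gene.

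MNT is a broadly expressed antagonist of MYC (ENSG00000070444.14, chromosome 17, 2384060 to 2401118, minus strand). MNT stood at 56.4, 55.1 and 53.4 CPM in normoxia C1 to C3. In hypoxia C4 to C6 it stood at 102, 108 and 97.3 CPM. The groups did not overlap. The mean rose from 54.9 ± 1.5 to 102.7 ± 5.56 CPM (SD, n = 3), which is 0.90 ± 0.05 in log2 units (SE) or 1.87-fold (edgeR adjusted p = 5.24e-08). Its main coding transcript MNT-201 rose less than the sum, by 0.71 ± 0.06 (SE, log2), and MNT-209, annotated with a retained intron, had a log2 change of 1.54 ± 0.12 (SE).

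The other MXD genes did not rise. MXD4 (ENSG00000123933.16, chromosome 4) stood at 56.1, 55.2 and 56.3 CPM in normoxia C1 to C3 and at 50.1, 48.5 and 50 CPM in hypoxia C4 to C6. The groups did not overlap, and the fall was small, with a log2 change of -0.17 ± 0.04 (SE, edgeR adjusted p = 0.00435). MXD3 (ENSG00000213347.10, chromosome 5), known from S phase of proliferating cells, stood at 8.71, 6.7 and 7.5 CPM in normoxia and at 6.85, 6.94 and 6.29 CPM in hypoxia. These ranges overlap, and its log2 change of -0.19 ± 0.12 (SE) did not pass (edgeR adjusted p = 0.172). MXD3 passed as fallen in several alternatives. Among them were limma on log2(FPKM + 0.5), with a log2 change of -0.47, and edgeR with library totals, at -0.34. MXD3 exons overlap those of PRELID1 on the opposite strand and RAB24 on the same strand, both tested and with more reads than MXD3.

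MAX, the obligate partner of MYC, did not pass the test as a gene sum (ENSG00000125952.18, chromosome 14, 65006174 to 65102695). MAX stood at 43.7, 43.3 and 39.8 CPM in normoxia C1 to C3 and at 43.7, 46.7 and 45.2 CPM in hypoxia C4 to C6. The ranges overlap. The log2 change was 0.10 ± 0.05 (SE, edgeR adjusted p = 0.136) and its direction depends on the scaling, at -0.06 with library totals and -0.25 with limma on log2(TPM + 0.5), where it passed as fallen. Per length, MAX stood at 27.2 ± 1.83 FPKM in normoxia and 25.6 ± 0.640 FPKM in hypoxia (SD, n = 3).

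Within this sum, the assignment of MAX reads to coding ends differed between the groups. MAX-202, the form that reads into the intron, held 21%, 20.2% and 22.9% of the gene's expected counts in normoxia C1 to C3 and 47.6%, 39.5% and 42.3% in hypoxia C4 to C6. Every hypoxia library had a higher share than every normoxia library. MAX-202 rose from 9.15 ± 0.234 to 19.3 ± 1.31 CPM (SD, n = 3), which is 1.08 ± 0.09 in log2 units (SE, edgeR per transcript, adjusted p = 0.000358). It was the single transcript of MAX to pass among 11 tested, in a test that does not cover the uncertainty of dividing reads among transcripts.

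The 4 annotated MAX transcripts that end as MAX-205 does went the other way as a share. Together they held 57%, 55.6% and 56.2% of the gene's counts in normoxia C1 to C3 and 33.2%, 37.6% and 34.1% in hypoxia C4 to C6. No test was run on this sum. MAX-204 and MAX-205, which differ by a short exon and little else in their coding part, had log2 changes of -0.70 ± 0.31 and -0.55 ± 0.52 (SE) and did not pass (edgeR adjusted p = 0.145 and 0.478). Reads were divided unevenly between both from library to library: MAX-205 held 6.04% of the gene's counts in hypoxia C4 and 26.2% in hypoxia C5. MAX-202 contains an intron of the other forms. MAX transcripts annotated as retained intron held 3.47% ± 1.42 of the counts in normoxia and 4.24% ± 1.44 in hypoxia (SD, n = 3), and the part of unspliced RNA in the MAX-202 counts was not tested.

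**Figure D2:**
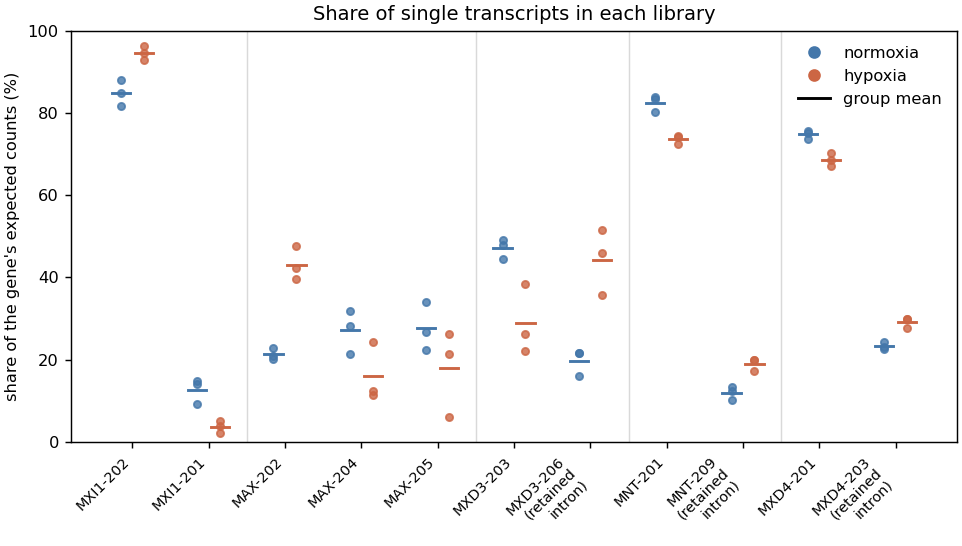
Share of a gene's expected counts (y axis, percent) assigned to single transcripts in each library, with a line at the mean of 3 libraries per group. MAX-202 and MXD3-206 sit higher in all hypoxia libraries, and MXI1-201 sits lower in all of them.

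Transcripts annotated as retained intron held a higher share of MXD3, MNT, MXD4 and MLXIP in every hypoxia library than in any normoxia library. In MXD3 the share of transcripts annotated as retained intron was 15.9%, 21.6% and 21.5% in normoxia C1 to C3 and 51.5%, 45.9% and 35.7% in hypoxia C4 to C6. The MXD3-206 transcript rose (log2 change 0.99 ± 0.25 SE) and the coding MXD3-203 fell (-0.94 ± 0.24 SE), while the gene sum did not pass. Each of these calls was lost when 1 of 5 libraries was left out: hypoxia C4, hypoxia C5 or any normoxia library, with log2 changes of 0.83 to 1.05 for MXD3-206 and -1.02 to -0.81 for MXD3-203. The share was 12.2% ± 1.41 in normoxia and 19.7% ± 1.62 in hypoxia for MNT, and 23.3% ± 0.846 and 29.1% ± 1.28 for MXD4 (SD, n = 3), with no test. For MLXIP it was 10.3% ± 0.317 and 12% ± 1.15, and the groups nearly met, at 10.6% in normoxia C3 and 10.8% in hypoxia C4. The ranges of the groups overlapped for MLX (16.5% ± 1.75 and 14.8% ± 0.458), for MAX and for MXD1 (0.739% ± 0.557 and 0.78% ± 0.205). How many of all genes show such a separation in share was not counted, so these members have no background here. By level, not share, 2328 of 13289 tested retained-intron transcripts of all genes rose and 1199 fell.

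MLX, the shared partner of the MondoA branch (ENSG00000108788.11, chromosome 17, 42567068 to 42573239, plus strand), was lower in hypoxia. MLX stood at 75.2, 74.4 and 74.6 CPM in normoxia C1 to C3 and at 58.4, 58.5 and 59.6 CPM in hypoxia C4 to C6. The groups did not overlap. The log2 change was -0.34 ± 0.04 (SE), or 1.27-fold, with an edgeR adjusted p of 2.00e-05. Its main transcript MLX-203 fell by 0.29 in log2 units (SE 0.08). This call was lost when leaving out normoxia C2 or C3 or hypoxia C5 or C6 (log2 change -0.30 to -0.23). MLX exons overlap those of the tested gene PSMC3IP on the opposite strand.

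MLXIP (MondoA), which moves to the nucleus when glucose-6-phosphate is high, did not pass. MLXIP (ENSG00000175727.13, chromosome 12) stood at 107, 112.8 and 108.5 CPM in normoxia C1 to C3 and at 110.9, 109.8 and 104.6 CPM in hypoxia C4 to C6. The ranges overlap, and its log2 change of -0.01 ± 0.04 (SE, edgeR adjusted p = 0.787) reached -0.17 with library totals and -0.215 with limma on log2(TPM + 0.5), where it passed as fallen. MLXIPL (ChREBP), outside the 10 genes, was low, at 3.71 ± 0.365 and 2.72 ± 0.879 CPM, and did not pass (log2 change -0.45 ± 0.21 SE). MGA, a large MAX partner also outside them, fell by 0.39 on the log2 scale (SE 0.05).

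Per length, the order of the members changed. In normoxia, MYC at 482 ± 19.1 FPKM was followed by MLX (39.1 ± 1.06), MAX (27.2 ± 1.83) and MLXIP (22.2 ± 0.562). MNT (17.7 ± 1.51), MXD4 (16.6 ± 0.135) and MXI1 (14.7 ± 1.55) came next, and the range of MNT overlapped those of both MXD4 and MXI1. MXD3 (5.8 ± 0.787), MXD1 (3.62 ± 0.252) and MYCN were lowest. In hypoxia, MYC at 146 ± 8.92 FPKM was followed by MXI1 (51 ± 2.62) and MNT (33.3 ± 3.63), then MLX (27.5 ± 0.152) and MAX (25.6 ± 0.640). MXI1 moved from the seventh place to the second, and MXD1 (16.8 ± 0.939) from the ninth to the seventh, past MXD4 (13.4 ± 0.281) and MXD3 (4.04 ± 0.0918). MLXIP (21.5 ± 0.776) was sixth and MYCN stayed last. These levels sum every transcript of a gene, each per its own length, so short non-coding transcripts weigh more than in counts. For MNT in hypoxia, the coding MNT-201 (4925 bases) held 73.8% of the counts. The non-coding MNT-204 (556 bases) held 5.13% and MNT-209 (2813 bases, retained intron) 19%. The order on coding transcripts alone was not computed, so the place of MNT holds for the sum only.

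**Figure D3:**
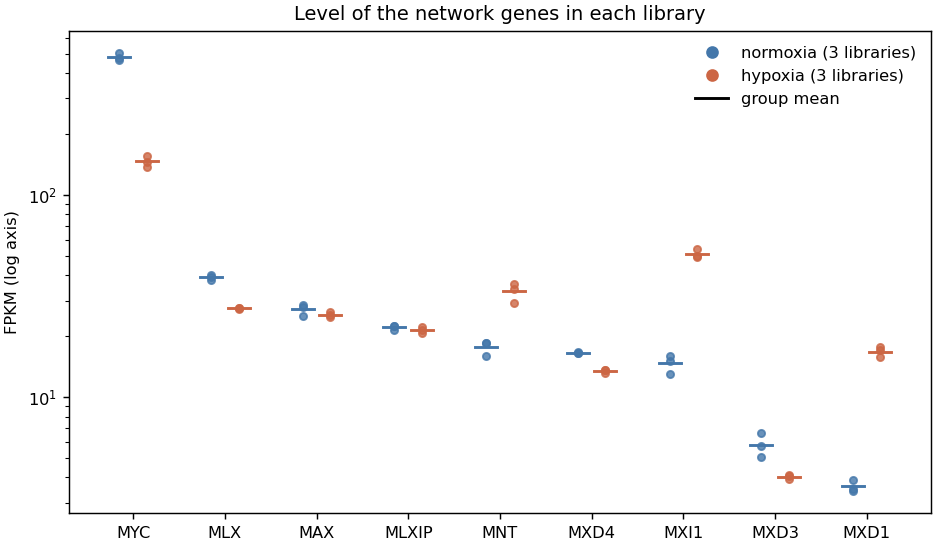
Level of 9 network genes in each library (FPKM on a log axis), ordered by the normoxia mean, with a line at the mean of 3 libraries per group. MYCN, at or under 0.149 FPKM in every library, is left out. MYC is highest in both groups, and MXI1, MXD1 and MNT sit higher in hypoxia.

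Ratios within a library do not depend on how libraries are scaled to each other. MYC made up 77.2%, 76.4% and 76.3% of the summed FPKM of the 10 genes in normoxia C1 to C3 and 42.7%, 44.3% and 42.3% in hypoxia C4 to C6. The 5 antagonists MXI1, MXD1, MXD3, MXD4 and MNT made up 9.29% ± 0.299 in normoxia and 34.9% ± 0.757 in hypoxia (SD, n = 3). The ratio of MYC to these 5 genes was 8.63, 8.05 and 8.10 in normoxia and 1.20, 1.30 and 1.21 in hypoxia. MYC still exceeded their sum in every hypoxia library. The ratio of MYC to MAX was 17.7 ± 0.663 and 5.72 ± 0.286, and that of MXI1 to MAX 0.543 ± 0.0797 and 2 ± 0.151. These are ratios of summed RNA, transcripts annotated as non-coding included, and protein was not measured. Retained-intron transcripts held 19.7% of MXD3, 23.3% of MXD4 and 12.2% of MNT counts in normoxia. In hypoxia they held 44.4%, 29.1% and 19.7%. For MXD1 they held 0.739% and 0.78%, and MXI1 has no transcript of this type. The shares and ratios on coding transcripts alone were not computed.

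**Figure D4:**
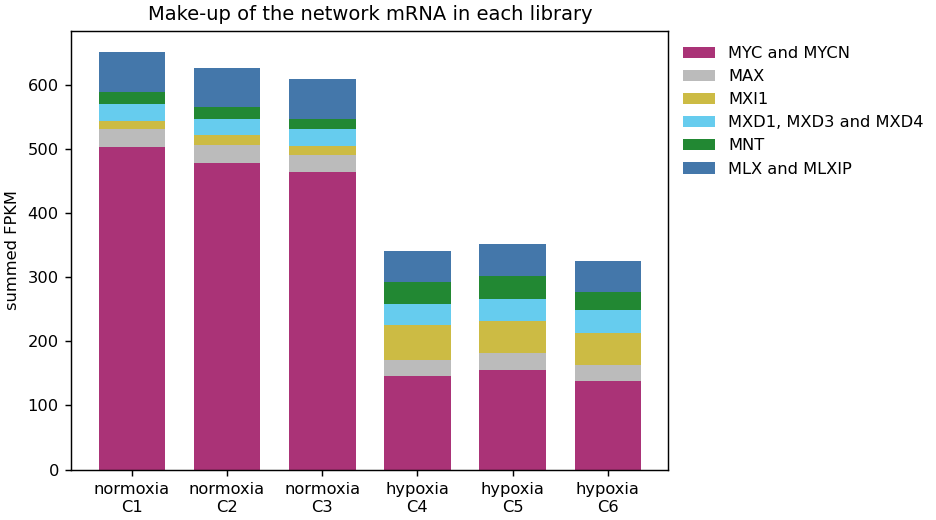
Summed FPKM of the 10 network genes in each library (y axis), stacked by gene or gene group. The sum is 609 to 651 in normoxia and 326 to 352 in hypoxia, and MYC (with MYCN) takes the largest part of every bar.

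The listed MYC target genes fell in hypoxia almost throughout. All 60 MYC target genes of the list were tested in edgeR: 53 were lower, 3 higher and 4 uncalled, where 36.3% of all genes were lower and 36.5% higher. Their median log2 change was -1.24, beside 0.025 for all genes. At least 2-fold falls were seen for 37 of the 60 and for 11.4% of all genes. Many of the 60 make ribosomes, and ribosome assembly genes outside the list were not compared. NOP16, a nucleolar protein of large-subunit assembly, stood at 54, 51.9 and 50 CPM in normoxia C1 to C3 and at 6.54, 5.79 and 5.66 CPM in hypoxia C4 to C6, a fall of 8.66-fold (log2 change -3.11 ± 0.07 SE). CAD, which starts pyrimidine synthesis, fell from 272.8 ± 9.45 to 39.2 ± 1.32 CPM (SD, n = 3). NOP2, an rRNA methyltransferase, fell 6.1-fold.

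Classical MYC targets were among them. Nucleolin (NCL) fell from 739.5 ± 33.7 to 320.8 ± 3.97 CPM and nucleophosmin (NPM1) from 768.5 ± 30.4 to 297.1 ± 8.72 CPM (SD, n = 3). The polyamine enzyme ODC1 fell 2.31-fold. CDK4, a cell-cycle kinase, had a small fall (-0.14 ± 0.05 in log2 units, SE). It did not pass with upper-quartile scaling (-0.08), on coding transcripts alone (-0.05) or without hypoxia C6 (-0.12). The 3 risen members were the hexokinase HK2 (9.42-fold), also a known HIF target, PPAN (2.37-fold), whose locus also gives read-through transcripts, and the nucleoside transporter SLC29A2 (1.18-fold). The list was drawn up with earlier results of these data known, so its count is a description.

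Among 9 genes known to be repressed by MYC, all tested, 6 rose, 2 fell and 1 was uncalled, beside 36.5% risen and 36.3% fallen among all genes. The risen count was 5 under library totals, without a low-count filter, and in limma on FPKM, quantile-normalized FPKM or TPM. It was also 5 when any 1 normoxia library, hypoxia C4 or hypoxia C5 was left out. The fallen count was 3 on TPM, with quantile normalization and without hypoxia C6. The median of the 9 genes was 0.60 in log2 units. NDRG1 rose from 378.9 ± 7.01 to 7640 ± 203 CPM (SD, n = 3) and is a known HIF target as well. The cell-cycle inhibitor CDKN1A rose 8.05-fold and the receptor PDGFRB 2.87-fold, from 2.13 CPM. THBS1, a matrix protein, fell 2.13-fold and the stress gene GADD45A 1.73-fold.

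Targets of MondoA and ChREBP went both ways. Of 14, 9 were tested, of which 5 rose and 4 fell, beside 36.5% and 36.3% of all genes. Their median of 0.16 turned to -0.21 without a low-count filter, which adds genes to the list, to -0.14 with limma on log2(TPM + 0.5) and to -0.06 with quantile normalization. TXNIP, the best known MondoA target and a brake on glucose uptake, rose from 54.7 ± 2.58 to 196.9 ± 5.27 CPM (SD, n = 3), which is 1.85 ± 0.05 in log2 units (SE), beside a lower MLX. KLF10 rose 4.57-fold and the desaturase SCD 1.7-fold. The fructose kinase KHK fell 3.12-fold and the fatty acid synthesis genes ACACA and FASN 2.58-fold and 2-fold. ARRDC4, the TXNIP paralog regulated by MondoA, had 0 counts in all 6 libraries.

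**Figure D5:**
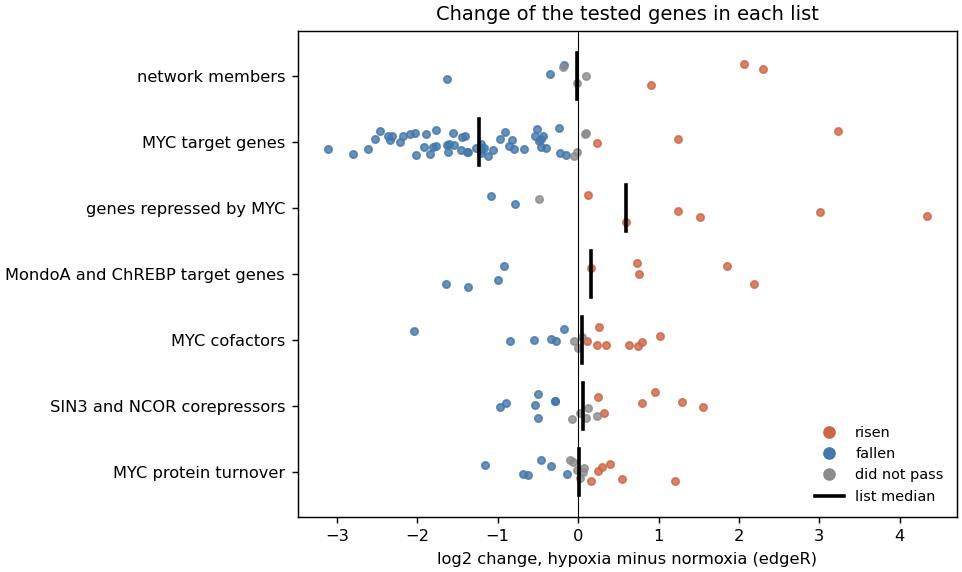
Log2 change in hypoxia against normoxia (x axis) of the tested genes of each list (points, spread vertically at random), with a bar at the list median. The MYC target genes have a median of -1.24, whereas the medians of the cofactor, corepressor and turnover lists lie within 0.1 of 0.

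Cofactors and corepressors went both ways, beside 36.5% risen and 36.3% fallen among all genes. Among the 17 MYC cofactors 8 (47.1%) were called higher and 6 (35.3%) lower, and their median was 0.04 in log2 units. This balance turned to 5 higher and 8 lower with library totals and to 4 and 10 with limma on log2(TPM + 0.5). The ATPase RUVBL1 fell 4.13-fold and RUVBL2, its partner, 1.47-fold, the acetyltransferase KAT2A fell 1.8-fold, whereas the acetyltransferases CREBBP and KAT5 rose 2.02-fold and 1.68-fold. ZBTB17 (MIZ1), through which MYC represses genes, rose 1.73-fold. Of 18 corepressor genes, among them those of the SIN3 complexes through which MXD proteins act, 6 (33.3%) rose and 7 (38.9%) fell (median 0.06). The counts were 5 and 9 with library totals, and 4 and 8 with limma on log2(TPM + 0.5). SAP30, a SIN3 subunit, rose 2.94-fold and ING2 2.45-fold, and BRMS1, HDAC2 and RBBP4 fell 1.95-fold, 1.86-fold and 1.45-fold. SIN3A and SIN3B, the scaffolds, did not pass.

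Genes that control the stability of the MYC protein also went both ways, with 6 risen, 6 fallen and 6 that did not pass, of 18, close to the shares of all genes (36.5% and 36.3%). The split depends on the scaling: 3 rose and 9 fell with library totals, and 2 rose and 10 fell with limma on log2(TPM + 0.5). The ubiquitin ligase gene SKP2 fell 2.23-fold, STUB1 1.6-fold and the kinase AURKA, which protects MYCN from decay, 1.54-fold. The deubiquitinases USP37 and USP28 rose 2.31-fold and 1.46-fold, and the kinase GSK3B, which marks MYC for decay, 1.31-fold. FBXW7, the ligase subunit that reads this mark, was not called, at -0.01 in log2 units. The medians of the cofactor, corepressor and turnover lists changed sign with library totals, at -0.11, -0.09 and -0.14.

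By the rule for likeness, the tested protein-coding genes closest to MYC over the 6 libraries were BYSL, ID3 and MT-ND5, with a root mean square distance in log2 CPM of 0.0329, 0.0335 and 0.0346. BYSL, a ribosome assembly gene, is also in the MYC target list. The closest to MXI1 were KDM7A (0.0612), MAP1LC3B (0.0775) and HOXA13 (0.0779). Each was compared with 9243 genes, and with 6 libraries in 2 groups the measure mostly matches the size of the change. The mean CPM of KDM7A, a histone demethylase, was 34 and 140, beside 43 and 179.9 for MXI1.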

How the data were processed

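The submitters' processing notes name RSEM, HISAT2, cutadapt and the build GRCh38 (hg38). Tool versions and the annotation release: not given in the sources used here. Expected counts of 251062 Ensembl transcripts were deposited by the authors, with transcript lengths, per the file headers. The table also has 6 columns of FPKM, not used here. Expected counts were summed per gene with GENCODE release 29, which holds 202907 of these transcripts. The other rows carry 6.12% to 6.39% of counts and were left out, so a gene's sum may miss newer transcripts. Sums were rounded and tested with edgeR 4.0.16 (filterByExpr, TMM, two-sided quasi-likelihood test, Benjamini-Hochberg over 17396 genes, threshold 0.05), and transcripts likewise. CPM uses TMM-adjusted totals. FPKM was recomputed from the counts and deposited lengths of each transcript, then summed per gene. The SE is the log2 change divided by the square root of F. The script was tested on simulated data. Replicate libraries were compared pairwise and none was a duplicate (chi-square over degrees of freedom 4.61 to 11). Column names gave conditions but no replicate numbers of the labels.

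The members and lists were chosen with earlier results of these data known. Named were all members, MYCL, MGA and MLXIPL, NCL, ODC1, CAD, NPM1, CDK4, TXNIP, ARRDC4, CDKN1A and NDRG1, up to 3 risen and 3 fallen genes with the largest changes per list at an FPKM of 1 or more, and transcripts with 10% or more of a member's counts. A gene that this rule names in the corepressor list is not reported here. FBXW7, SIN3A, SIN3B, MYC-207, MXI1-203 and the overlapping genes were named after their values were seen. Genes most like MYC and MXI1 were sought at 10 CPM or more. Alternatives were DESeq2 1.42.0, other edgeR scalings and filters, limma 3.58.1 on log2 FPKM or TPM, coding transcripts alone, and leaving out each library.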

Additional observations from a re-analysis of the deposited data

How the results depend on the processing

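No paired analysis was possible because the columns carry no replicate numbers of the labels. MYC, MXI1, MXD1, MNT, MLX and MXD4 kept their direction and their call under every alternative run. The count of risen members was 3 to 4 over all alternatives and 3 without any 1 library. The count of fallen members was 3 without any 1 library, 5 with library totals and 6 with limma on log2(TPM + 0.5). It was 4 with limma on log2 FPKM at each pseudocount and with quantile normalization. Of the MYC targets, 52 to 55 fell over the alternatives, and 5 rose with quantile normalization. Over all genes the median was 0.025 in log2 units under TMM, -0.127 under library totals and -0.272 on TPM, so changes of this size hold relative to the scaling. MAX had log2 changes of -0.056 with library totals, -0.084, -0.085 and -0.083 in limma on FPKM with pseudocounts of 0.5, 0.1 and 1, and -0.251 on TPM, but 0.162 with upper-quartile scaling and 0.201 on coding transcripts, where it passed as risen. MLXIP was at 0.052 with upper-quartile scaling, 0.001 with a filter of FPKM 0.5, 0.093 with quantile normalization, 0.075 on coding transcripts and -0.041 to 0.016 with single libraries left out (0.016 without hypoxia C6). Single transcripts reversed without passing: MXD4-203 at -0.005 with library totals, and MXI1-201 at -0.119 without hypoxia C5 and -0.091 without normoxia C1, with a range up to 0.413 over the libraries left out. MAX-204 passed as fallen without hypoxia C4 (-1.13). The cause was not tested.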
